A study of Mus musculus with 7 samples.

Results

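The AP-1 and immediate early genes Jun, Junb, Jund, Fos, Fosl2, Atf3 and Egr1, were followed by day in mouse embryonic stem cells differentiating with retinoic acid. They were taken by symbol, and all 7 were among the 12071 gene symbols of the table, each with 1 RefSeq transcript. The cells were the CCE line, grown without feeder cells. On day 0 they were kept in leukemia inhibitory factor (LIF), which holds mouse stem cells undifferentiated, and are labelled with DMSO. From day 1 through day 6 they grew in 5 µM retinoic acid with no LIF. Each day had 1 library of ribosomal-RNA-depleted total RNA, so no value has a replicate, and the effects of retinoic acid, of LIF withdrawal and of time cannot be told apart. The culture is 1 line, and separate dishes for the days are not mentioned in the labels.

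AP-1 is a dimer of leucine zipper proteins that binds the DNA element TGACTCA. Jun proteins pair with one another, with Fos proteins or with ATF proteins such as Atf3, while Fos proteins need a Jun partner. Immediate early genes, among them Fos, Jun, Junb, Atf3 and the zinc finger factor Egr1, are transcribed within minutes of a growth factor or stress signal through MAP kinases acting on factors already present, and their messages are short-lived. Jun is known to be low in pluripotent cells and to increase when embryonal carcinoma cells differentiate with retinoic acid.

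The promoters of the 3 genes that stood furthest above day 0 on day 5, Fosl2, Jun and Atf3, are shown because AP-1 proteins can act on the genes that encode them. Each is the 250 bases before the annotated start, 5′ to 3′ on the gene's strand, from RefSeq in build GRCm38.p6. Capitals mark TNACNTCA, a pattern that covers the variant AP-1 and ATF elements TGACATCA and TGACGTCA and was chosen after these sequences were seen.
Jun, chr4:95052223-95052472, minus strand: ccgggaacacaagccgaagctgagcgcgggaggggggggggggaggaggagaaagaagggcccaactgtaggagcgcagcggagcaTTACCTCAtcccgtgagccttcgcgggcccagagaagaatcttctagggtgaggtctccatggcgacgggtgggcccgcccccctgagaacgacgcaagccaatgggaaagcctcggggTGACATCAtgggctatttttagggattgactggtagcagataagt
Atf3, chr1:191183334-191183583, minus strand: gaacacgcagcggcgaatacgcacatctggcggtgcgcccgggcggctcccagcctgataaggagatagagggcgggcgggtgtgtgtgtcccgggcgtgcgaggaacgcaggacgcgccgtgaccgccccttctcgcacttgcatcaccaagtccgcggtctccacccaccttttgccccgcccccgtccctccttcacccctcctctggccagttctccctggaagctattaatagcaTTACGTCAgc
Fosl2, chr5:32136222-32136471, plus strand: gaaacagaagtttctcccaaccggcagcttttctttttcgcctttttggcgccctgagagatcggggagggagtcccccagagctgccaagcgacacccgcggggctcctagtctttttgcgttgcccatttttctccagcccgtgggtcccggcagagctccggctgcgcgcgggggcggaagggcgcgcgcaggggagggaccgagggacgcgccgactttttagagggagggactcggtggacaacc

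The Jun promoter held TTACCTCA beginning 164 bases and TGACATCA beginning 45 bases before the start. The Atf3 window held TTACGTCA beginning 10 bases before the start, and the Fosl2 window held no TNACNTCA. Of 6 members with a promoter entry used, Jund held a match too, on the opposite strand (TGAGGTGA as read on the gene's strand), and Junb, Fos and Fosl2 held none. On both strands, TNACNTCA occurred in 14% of 32851 promoter windows of this length and TGACATCA, which it includes, in 2.93%. None of the 6 windows held TGACTCA (4.46% of all windows), TGACGTCA (1.55%) or a CArG box, the binding element of serum response factor (1.47%). The Egr family motif GCGNGGGCG (4.7% of all windows) was matched in the Fosl2 window alone of the 6, by GCGGGGGCG beginning 79 bases before the start. A match is a stretch of letters and not a measured binding site, and a window without one says only that these letters are not in it.

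Values are log2 normalised reads per transcript: whole reads multiplied by 1 factor per library, not divided by length. Summed over 15296 transcripts, reads numbered 7194325 on day 6 to 17923852 on day 4, and reads shared by transcripts of a gene may count more than once. Counting intervals below are exact binomial (Clopper-Pearson) at 95%, which cover counting error only. The day 6 library stood apart with transcript length: between days 5 and 6 the median log2 difference was -0.09 over 2892 genes with transcripts of 1500 up to 2500 nt and -2.80 over 1331 genes with transcripts of 5000 up to 7000 nt. Trends are therefore given over days 0 to 5 and over days 0 to 6. All 8 pluripotent stem cell markers examined, among them Pou5f1 and Dppa5a, stood at least 2-fold lower on day 5, and their summed level per kb of transcript went from 65534 on day 0 to 720.8 on day 5. That of 11 extraembryonic endoderm markers went from 4393 to 66227, with 9 of 10 that passed the expression filter (a mean above the 40th percentile of all genes) rising, and that of 7 fibroblast markers from 291.1 to 12499, with 5 of 5 that passed the filter rising, while Thy1, which did not pass it, went from 7.76 to 4.51. Of 6 neural markers, 3 of 4 that passed the filter rose, and the summed level went from 1152 to 1824. Of the others, Sox1 went from 6.56 to 5.30 and Pax6 from 7.71 to 7.93. Several rising markers, among them Plat, Gata6 and all 5 fibroblast genes, lay under the filter's value of 8.40 on day 0 and passed it through later levels. The counts past the filter are therefore a description only. Without the filter 9 of 11 endoderm, 5 of 7 fibroblast and 3 of 6 neural markers rose, against 25.9% of all genes. Each of these markers had at least 1 read every day, and Nanog and Sox1 were at 1 read, the lowest of the library, on day 6. The part of changing cell types in the courses below was not tested, and in bulk RNA more cells of a type and more RNA per cell cannot be told apart.

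Jun and Fosl2 rose over days 0 to 5, Fos rose to a lower level than these, and Atf3 stood highest on day 3. Jund stood above day 0 on every later day, while Junb and Egr1 stood below it on every later day. On day 5 Fosl2 was 67.7-fold, Jun 43.2-fold, Atf3 8.09-fold, Fos 4.41-fold and Jund 3.87-fold higher than on day 0, and Junb was 2.06-fold lower. With quantile normalization over all genes the log2 differences of Atf3 and Fos were smaller, at 2.16 in place of 3.02 and 1.41 in place of 2.14. Over the genes that passed the expression filter it gave 4.40 in place of 6.08 for Fosl2 and 3.96 in place of 5.43 for Jun.

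**Figure D1:**
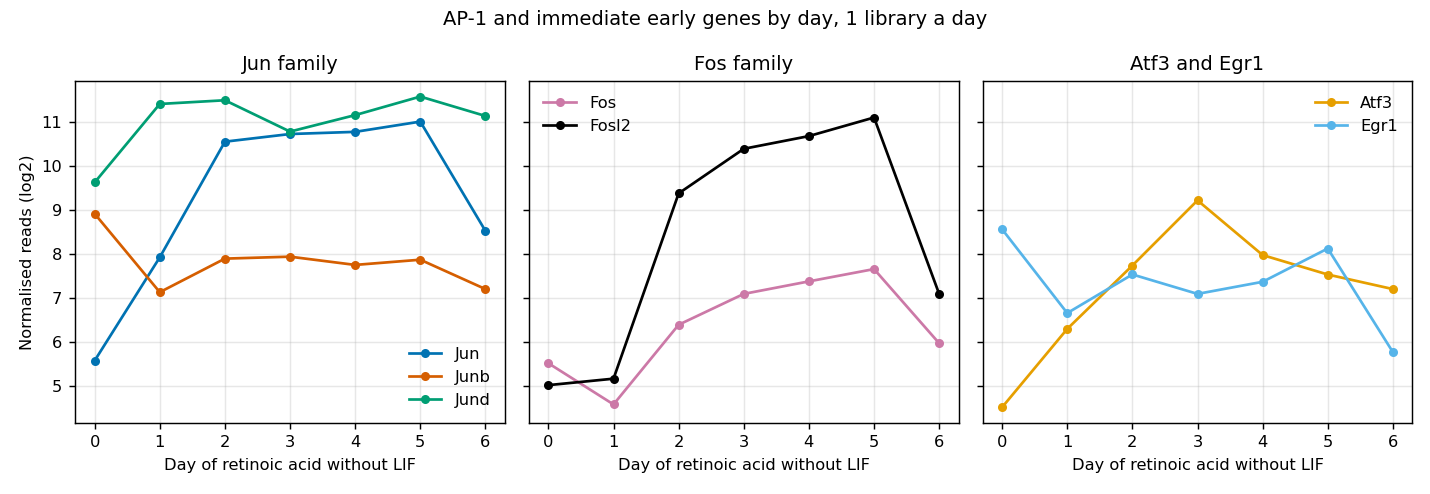
Log2 normalised reads (y axis) of the 7 genes on each day (x axis), 1 point per library. Jun and Fosl2 go from under 6 on day 0 to about 11 on day 5, Junb and Egr1 stay below their day 0 level, and every gene is lower on day 6 than on day 5.

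In the Jun family, the gene that was lowest on day 0 came near the highest on days 3 to 5 and lay well below it again on day 6. Jun, the main AP-1 subunit (NM_010591, chromosome 4, 94715726 to 94718913 in mm9), is intronless in the table, with a genomic span equal to its transcript length of 3188 nt. Its levels were 5.59, 7.93, 10.56, 10.74, 10.79, 11.02 and 8.53 from day 0 to day 6. The first steps, to days 1 and 2, were 5.09-fold (log2 2.35, interval 1.73 to 3.02) and 6.18-fold (log2 2.63, interval 2.37 to 2.89). Smaller steps beyond counting error followed from day 2 to day 3 (log2 0.17, interval 0.04 to 0.31) and from day 4 to day 5 (log2 0.23, interval 0.13 to 0.33). The day 0 library held 25 Jun reads and the day 5 library 1734. Over days 0 to 5 the slope was 1.03 ± 0.23 log2 units per day (SE; limma adjusted p = 0.0115), and a straight or curved course was called as well (limma F-test of day and day squared, adjusted p = 0.00158). Without the day 0 library the slope was 0.64 and not called (limma adjusted p = 0.0627). Over days 0 to 6 it was 0.54 ± 0.30 (limma adjusted p = 0.276).

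Jund, the Jun protein that is present in most resting cells (NM_010592, chromosome 8, 73221637 to 73224515), had the highest level per kb of the 7 genes in every library. Daily levels were 9.64, 11.42, 11.50, 10.79, 11.17, 11.59 and 11.15 from day 0 to day 6. Day 1 stood above day 0 by a log2 difference of 1.78 (interval 1.63 to 1.94), against 1.95 on day 5, and day 3 lay 1.64-fold below day 2. Its slope over days 0 to 5 was 0.24 ± 0.13 (limma adjusted p = 0.151), and the F-test gave an adjusted p of 0.183 (limma).

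Junb, which is a weaker transcriptional activator than Jun (NM_008416, chromosome 8, 87500810 to 87502617), moved the other way on day 1. Its levels from day 0 to day 6 were 8.93, 7.14, 7.90, 7.95, 7.76, 7.88 and 7.21. The day 1 library lay 3.44-fold below day 0 (log2 -1.78, interval -2.16 to -1.42). Days 2 to 5 formed a lower plateau, of which the most distant neighbours, days 3 and 4, differed by -0.19 (interval -0.52 to 0.15). Junb had 253 reads on day 0 and 82 on day 1. Its slope over days 0 to 5 was -0.09 ± 0.12 (limma without the expression filter, adjusted p = 0.532).

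**Figure D2:**
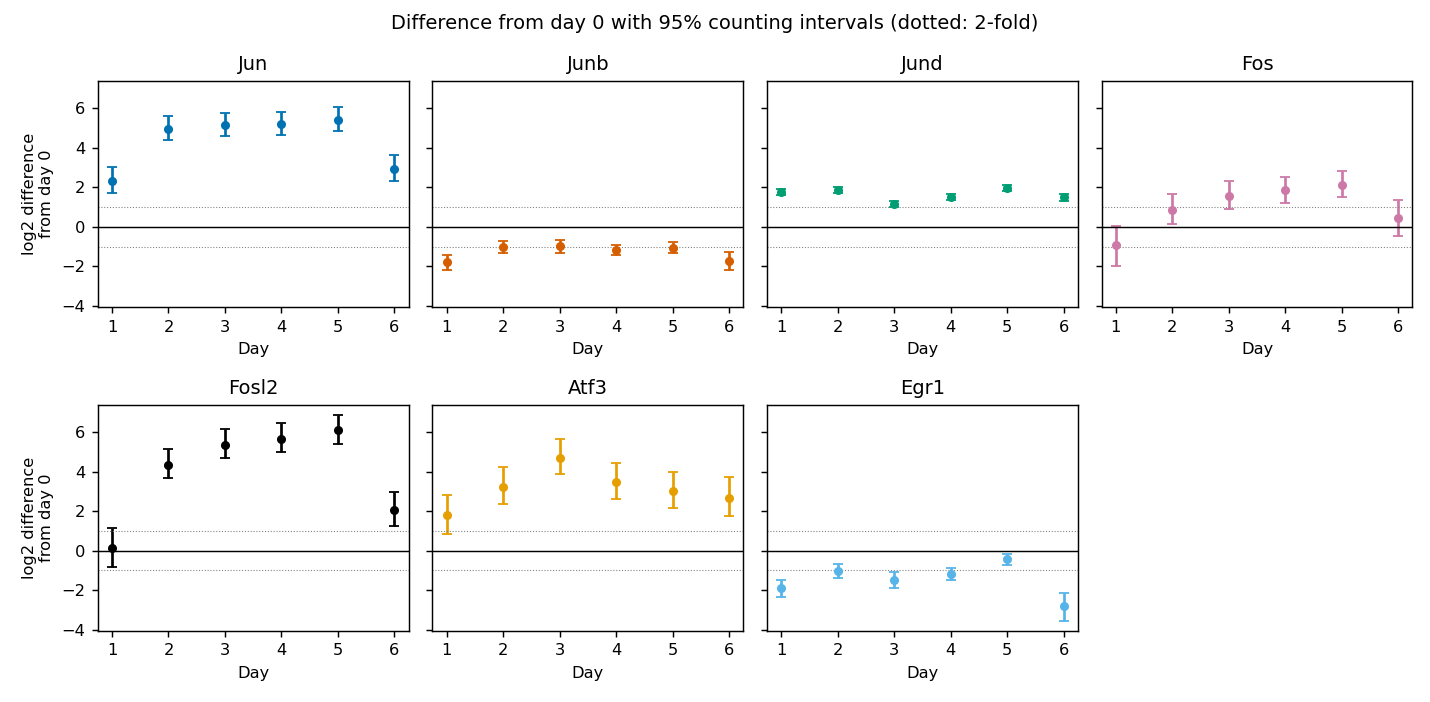
Log2 difference from day 0 (y axis) on days 1 to 6 (x axis) for each gene, with 95% counting intervals as bars and 2-fold lines dotted. The intervals of Jun, Jund and Atf3 lie above 0 on all 6 days and those of Junb and Egr1 below 0 on all 6 days, while the interval of Fosl2 spans 0 on day 1 only and that of Fos on days 1 and 6.

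Levels of different genes were compared per kb of transcript. On day 0 Jund (log2 level per kb 8.11) and Junb (8.07) did not differ beyond counting error, with a Jund to Junb ratio of 1.03 (interval 0.877 to 1.21), and Jun lay 18.3-fold below Jund (interval 12.2 to 28.7). On day 1 Jund stood 12.2-fold above Junb (interval 9.75 to 15.4), and Jun and Junb were level, at a Jun to Junb ratio of 0.982 (interval 0.743 to 1.31). By day 3 Jun reached 0.870 of Jund (interval 0.791 to 0.956), the closest approach, and on day 5 it stood at 0.609 of Jund and at 4.99 times Junb. By these ratios the family went from near-equal Jund and Junb with little Jun on day 0 to Jund and Jun with less Junb on day 5. On day 6 Jun stood at 0.148 of Jund (interval 0.122 to 0.177) and at 1.42 times Junb (interval 1.03 to 1.98), with Junb at 0.104 of Jund.

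The log2 ratios of 6 pairs, chosen with earlier results of these data known, were tested against day. Each test was two-sided and exact over all permutations of the days. The log2 ratio of Jun to Junb increased with day over days 0 to 5. It went from -3.34 on day 0 to 0.79, 2.66, 2.79, 3.02 and 3.14 on days 1 to 5 and was 1.32 on day 6, with r = 0.83 over 6 libraries (exact permutation p = 0.00278, the smallest this design allows, 0.00833 adjusted over 6 pairs) and Spearman rho = 1 (exact permutation p = 0.00278, 0.00833 adjusted). Without days 0 and 5, the ends of the series, r was 0.86. Over all 7 libraries r was 0.64 (exact permutation p = 0.110, 0.282 adjusted). For Jun to Jund r was 0.85 (exact permutation p = 0.0389, 0.0583 adjusted) and rho 0.77 (exact permutation p = 0.103, 0.154 adjusted), with 0.85 without days 0 and 5, and for Junb to Jund r was -0.49 (exact permutation p = 0.35, 0.35 adjusted) and rho -0.26 (exact permutation p = 0.658, 0.658 adjusted), with 0.74 without days 0 and 5. Neither of these passed the adjustment.

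**Figure D3:**
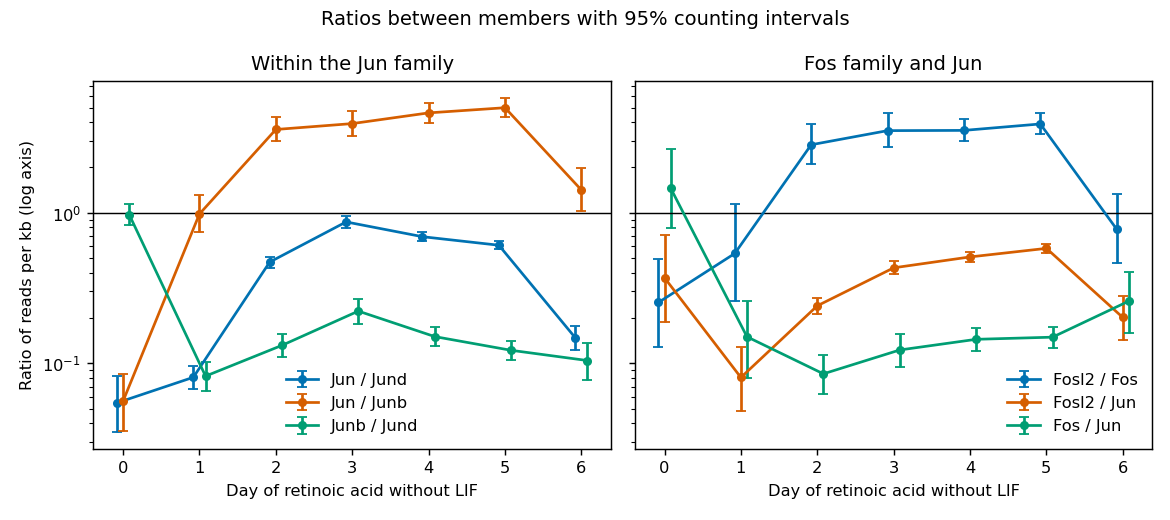
Ratio of reads per kb between pairs of genes (y axis, log scale) by day (x axis), with 95% counting intervals as bars. Jun to Junb passes 1 between days 1 and 2 and reaches 4.99 on day 5, Junb to Jund leaves 1 after day 0, and Fosl2 to Fos lies above 1 on days 2 to 5.

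Among the Fos proteins, Fosl2 (Fra-2), a slower and more lasting family member without the strong activation domain of Fos, had the larger change. Fosl2 (NM_008037, chromosome 5, 32438844 to 32460207, transcript 5862 nt) had levels of 5.03, 5.18, 9.39, 10.40, 10.69, 11.11 and 7.10 from day 0 to day 6. Day 1 did not differ from day 0 beyond counting error (17 and 21 reads, log2 difference 0.15, interval -0.85 to 1.16), and day 2 stood 18.5-fold above day 1 (log2 4.21, interval 3.58 to 4.92). In these libraries Jun left its day 0 level 1 day before Fosl2. The Fosl2 slope over days 0 to 5 was 1.37 ± 0.23 (limma adjusted p = 0.0050), the F-test gave an adjusted p of 0.00517 (limma), and over days 0 to 6 the slope was 0.69 ± 0.38 (limma adjusted p = 0.277). Its mean of 8.41 lay just above the expression filter of 8.40.

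Fos itself, the classical immediate early gene (NM_010234, chromosome 12, 86814850 to 86818219), stayed low. Its levels from day 0 to day 6 were 5.53, 4.59, 6.40, 7.10, 7.39, 7.67 and 5.98, on 24, 14, 48, 69, 152, 170 and 23 reads. Day 1 was the lowest day, with an interval against day 0 that included 0 (log2 -0.94, -2.00 to 0.07), and the later days up to day 5 were each higher than the one before. The steps from day 3 to day 4 (log2 0.28, interval -0.14 to 0.72) and from day 4 to day 5 (log2 0.28, interval -0.04 to 0.60) were within counting error. In the fit without the expression filter its slope over days 0 to 5 was 0.57 ± 0.13 (limma adjusted p = 0.0132), and over days 0 to 6 it was 0.30 ± 0.17 (limma adjusted p = 0.273).

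Per kb, Fos exceeded Fosl2 3.95-fold on day 0 (interval 2.03 to 7.83), and Fosl2 exceeded Fos 3.89-fold on day 5 (interval 3.33 to 4.58). The log2 ratio of Fos to Fosl2 decreased with day over days 0 to 5, from 0.50 to -3.44, with r = -0.89 (exact permutation p = 0.00278, 0.00833 adjusted over 6 pairs), rho = -1 (exact permutation p = 0.00278, 0.00833 adjusted) and r = -0.83 without days 0 and 5. With day 6, where the longer Fosl2 transcript was 16.1-fold lower than on day 5 and Fos 3.22-fold lower, r was -0.52 (exact permutation p = 0.215, 0.282 adjusted). Against Jun, Fos was level on day 0 (Fos to Jun ratio per kb 1.46, interval 0.798 to 2.66) and stood at 0.149 of it on day 5. The Jun to Fos log2 ratio was not called with day (r = 0.59, exact permutation p = 0.242, 0.29 adjusted; rho = 0.43, exact permutation p = 0.419, 0.503 adjusted; r = -0.12 without days 0 and 5), and it was highest on day 2.

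Atf3, a stress-induced ATF protein that represses transcription as a homodimer (NM_007498, chromosome 1, 192994175 to 193007212), made a pulse. Daily levels were 4.53, 6.31, 7.75, 9.23, 7.99, 7.54 and 7.21 from day 0 to day 6. Reads numbered 12 on day 0 and 301 on day 3, a 26.0-fold difference (log2 4.70, interval 3.87 to 5.67), and day 4 lay 2.37-fold below day 3 (log2 -1.24, interval -1.50 to -0.99). A straight or curved course over days 0 to 5 was called (limma F-test without the expression filter, adjusted p = 0.00352), and the straight slope was not (0.62 ± 0.24, limma adjusted p = 0.0724). Without day 5 the straight slope was 0.98 and called (limma adjusted p = 0.028).

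Egr1, a zinc finger factor induced by the same signals as Fos (NM_007913, chromosome 18, 35020860 to 35024610), had its highest level on day 0. Daily levels were 8.57, 6.67, 7.55, 7.10, 7.38, 8.13 and 5.78 from day 0 to day 6. The day 1 library lay 3.74-fold below day 0 (log2 -1.90, interval -2.35 to -1.48), and by day 5 the difference from day 0 was -0.44 (interval -0.72 to -0.16). No trend was called over days 0 to 5 (slope -0.01 ± 0.15, limma without the expression filter, adjusted p = 0.946; F-test adjusted p = 0.140). The log2 ratio of Fos to Egr1 went from -3.04 on day 0 to 0 on day 3, with 69 reads of each gene, and to -0.47 on day 5 (r = 0.88, exact permutation p = 0.025, 0.05 adjusted; rho = 0.83, exact permutation p = 0.0583, 0.117 adjusted; r = 0.95 without days 0 and 5), which did not pass under 0.05. With day 6 included r was 0.89 and passed (exact permutation p = 0.00675, 0.0405 adjusted).

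By count, 3 of the 7 genes passed the expression filter (Jun, Jund and Fosl2), and limma called 2 of these 3 rising and 0 falling over days 0 to 5, where 25.7% of 7242 genes rose and 26.8% fell. Jun and Fosl2 lay under the filter's value of 8.40 on days 0 and 1 and passed it through their later levels, so the count among the 3 is given as a description only. Without the filter 3 of 7 rose (Jun, Fosl2 and Fos) and 0 fell, against 25.9% and 22.1% of 12071 genes. The F-test called 2 of 3, against 52.4% of genes, and without the filter 4 of 7, against 48%. Over days 0 to 6 it was 0 of 3 and, without the filter, 0 of 7 in either direction by limma, against 1.6% rising and 3.78% falling of the genes that passed the filter and 2.58% and 5.2% of all genes, and the lowest unadjusted p of the 7 was 0.103 (limma without the expression filter).

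**Figure D4:**
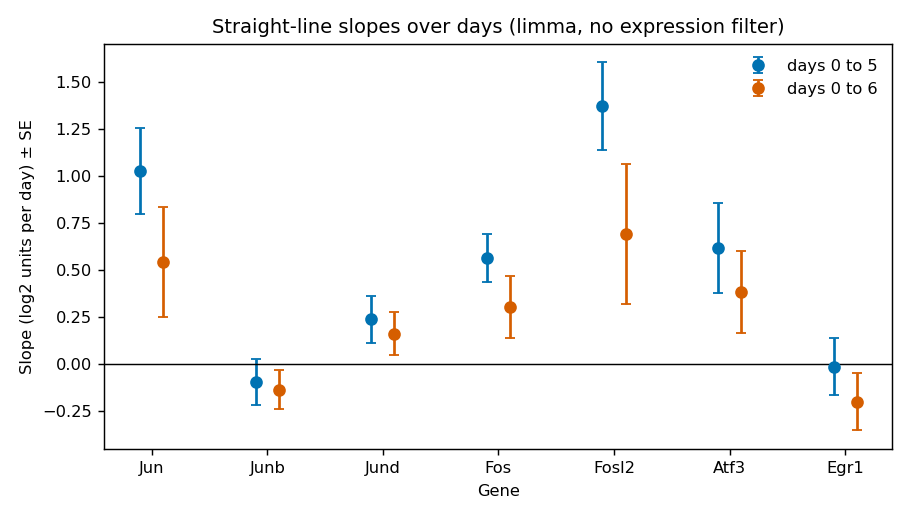
Slope in log2 units per day (y axis) of each gene (x axis) with its standard error as bars, over days 0 to 5 and over days 0 to 6, from the limma fits without the expression filter. The slopes of Jun, Fos, Fosl2 and Atf3 are lower with the day 6 library, at 0.54 against 1.03 for Jun and 0.69 against 1.37 for Fosl2.

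On day 1 alone, of the 7 genes, Jun, Jund and Atf3 stood above day 0 by 2-fold or more (9.15% of all genes did) and Junb and Egr1 below it by 2-fold or more (4.02%). Among the 3 genes that passed the filter these counts were 2 and 0, against 6.06% and 1.96%. On day 5 Jun, Jund, Fos, Fosl2 and Atf3 were above day 0 by 2-fold or more (25.9% of all genes) and Junb below it by 2-fold or more (15.6%), which a correction for transcript length ended (log2 -0.83 in place of -1.05); among the 3 that passed the filter all 3 were higher and 0 lower, against 20.9% and 14.1%. Jun and Fosl2 passed the filter through their later levels, so the counts among the 3 are a description only. The median difference over all genes was 0.11 on day 1 and 0.13 on day 5.

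All 7 genes were lower on day 6 than on day 5, from -4.01 in Fosl2 to -0.33 in Atf3 on the log2 scale, and the Atf3 interval included 0 (-0.81 to 0.12). Jun, Fos, Fosl2 and Egr1 were at least 2-fold lower, 4 of 7, where 51.1% of all genes were (51.7% of those that passed the filter). After a correction for transcript length the step was -2.39 in Fosl2, -2.43 in Fos, -2.11 in Jun, -2.07 in Egr1, -1.83 in Junb, -1.23 in Atf3 and -0.33 in Jund. The correction made the step smaller for the long Fosl2 transcript and larger for the short transcripts of Junb, Fos and Atf3. It kept the median of each library, so the corrected steps still hold the shift shared by all genes. Before correction the median step from day 5 to day 6 over all genes was -1.06. The corrected Atf3 step lay near that value and the corrected Jund step was smaller than it.

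Ordered by level per kb, day 0 read Jund, Junb, Egr1, Fos, Jun, Atf3 and Fosl2, with Egr1 5.63-fold above Fos (interval 3.67 to 8.99). From Fos down, no pair of neighbours differed beyond counting error, while Fos and Jun each exceeded Fosl2 at the end of the order (Jun to Fosl2 2.70-fold, interval 1.40 to 5.34). On day 5 the order was Jund (10.06), Jun (9.35), Fosl2 (8.56), Junb (7.03), Fos (6.60), Atf3 (6.56) and Egr1 (6.51). There the last 3 could not be separated, with ratios between neighbours of 1.03 (interval 0.823 to 1.29) and 1.03 (interval 0.836 to 1.27). Among all genes, the level per kb of Jun went from percentile 7.51 on day 0 to percentile 84.0 on day 5, that of Fosl2 from 2.62 to 70.6 and that of Jund from 63.5 to 91.2. The percentile of Junb went from 62.9 to 36.3 and that of Egr1 from 42.6 to 26.9.

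Across days 0 to 5 the courses of the genes are described here by Pearson correlation over 6 libraries that share depth and scaling. Jun correlated with Fosl2 (r = 0.94), Atf3 (0.92), Fos (0.79) and Jund (0.75), and Fos with Fosl2 (0.95). Junb correlated with Egr1 (0.86) and ran opposite to Jund (-0.84). The courses did not form separate groups: Jund correlated less with Fosl2 (0.51) and Fos (0.27), and Fos with Egr1 at 0.23. Among 6866 other genes that passed the filter, the nearest to Jun were Mex3d (r above 0.999), Zcrb1 and Farp1, whose r over 7 libraries were 0.58, 0.16 and 0.98. Nearest to Fosl2 were Pbxip1, Cmtm3 and Gnas (r over 7 libraries 0.79, 0.86 and 0.76), and to Jund Pde6d, Gpatch8 and Epc1 (0.58, 0.04 and 0.13). Fos was most like Atp2c1, Nsmce2 and Ralb, and Atf3 most like Atp6v0e, Kank1 and Il33, with Il33 peaking at 9.41. Junb was nearest to Mapkapk3, which encodes a kinase activated by p38 (r = 0.998 over days 0 to 5 and 0.89 over 7 libraries). Next came Ifitm3 and Ppil2 (0.37 and 0.57 over 7 libraries). Egr1 was nearest to Nav1, Cdc42ep4 and Slc9a3r1 (0.86, 0.94 and 0.63 over 7 libraries). These likenesses rest on 6 libraries and are a description.

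Other leucine zipper genes, many of which can pair with Jun or Fos, were mostly not called. Of 13 listed here and in the table, 7 passed the filter. Of these 0 rose and 1 fell over days 0 to 5, against 25.7% and 26.8% of all genes that passed (median slope 0.06 against 0.00). The falling gene was Atf1, a CREB family activator, which went from 10.79 on day 0 to 9.50 on day 5 (slope -0.25 ± 0.05, limma adjusted p = 0.00725). Without the filter 4 rose and 1 fell, against 25.9% and 22.1% of all genes. Maf, a basic leucine zipper factor named after its values were seen, was at 1 read on day 0, the lowest level of that library, and at a level of 8.28 on day 5. Fosb, another Fos family gene, had 8 reads on day 0 and a slope of 0.19 ± 0.16 (limma without the expression filter, adjusted p = 0.357).

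**Figure D5:**
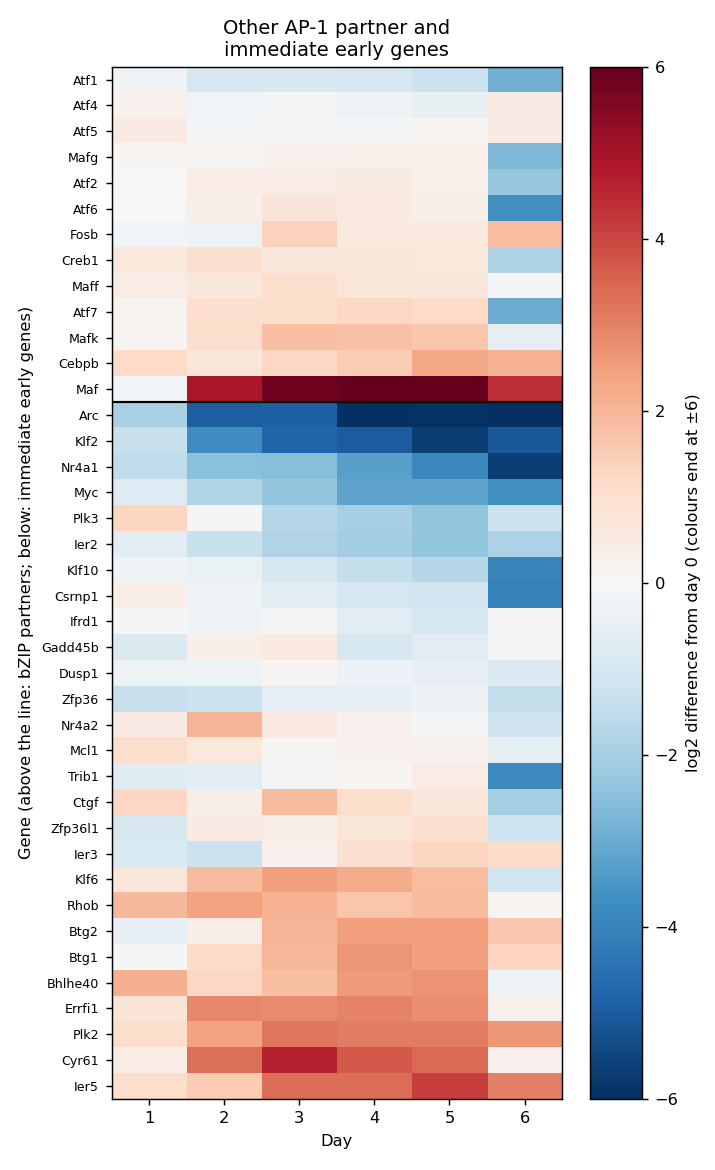
Log2 difference from day 0 (colour, red higher and blue lower) on days 1 to 6 (x axis) for other leucine zipper partner genes and other immediate early genes (y axis), ordered by their day 5 difference within each list. Arc, Klf2, Nr4a1 and Myc are blue from day 1 on, and Ier5, Cyr61, Plk2 and Errfi1 are red on days 1 to 5.

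Other immediate early genes split in both directions. Of 27 in the table, 17 passed the filter, of which 8 rose, 5 fell and 4 were not called over days 0 to 5 (median slope 0.23). Of all genes that passed, 25.7% rose and 26.8% fell. Several rising genes, Cyr61, Plk2, Errfi1, Bhlhe40 and Btg1, lay under the filter's value of 8.40 on day 0 and passed it through later levels. Myc and Plk3, which fell, lay under it on day 5 and passed it through earlier levels. The counts and the median slope past the filter are therefore a description only. Without the filter 9 of the 27 rose and 9 fell, against 25.9% and 22.1% of all genes, and the median slope of the list was 0.0455. Cyr61, a matrix-associated signalling protein, went from 7.64 on day 0 to 11.05 on day 5 (slope 0.80 ± 0.24, limma adjusted p = 0.0292), and Btg2, an antiproliferative gene, from 8.47 on day 0 to 10.51 on day 3 (slope 0.65 ± 0.11, limma adjusted p = 0.00539). Myc, the growth-promoting transcription factor, fell from 11.29 to 8.11 (slope -0.67 ± 0.06, limma adjusted p = 0.00196), and the polo-like kinase gene Plk3 fell from 9.97 to 7.62 after 11.24 on day 1 (slope -0.66 ± 0.15, limma adjusted p = 0.0116). Over days 0 to 6 limma called 0 rising and 2 falling of the 17, against 1.6% and 3.78% of all genes that passed.

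Among the genes upstream, the serum response factor list had 4 of 8 genes past the filter, of which 2 rose and 0 fell. Of all genes past the filter, 25.7% rose and 26.8% fell. Without the filter 3 of the 8 rose and 0 fell, against 25.9% and 22.1% of all genes. The rising genes of the list that passed the filter were the actin-regulated cofactors Mkl2 (slope 0.25) and Mkl1 (0.14). Srf itself had a slope of -0.07 ± 0.06 (limma adjusted p = 0.330). Of 18 MAP kinase genes, 16 passed the filter, and 4 rose and 1 fell (median slope 0.03), against the same 25.7% and 26.8%. Without the filter 5 of the 18 rose and 1 fell, against 25.9% and 22.1% of all genes. Map3k1, an activator of the JNK pathway, went from 9.47 to 11.07 (slope 0.37, limma adjusted p = 0.00282). Map2k4, a kinase that phosphorylates JNK, had a slope of 0.18 (limma adjusted p = 0.00606), while Map2k3, a p38 kinase activator, fell with a slope of -0.22 (limma adjusted p = 0.0156).

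Among 19 genes described as AP-1 targets, 11 passed the filter, of which 6 rose and 0 fell over days 0 to 5 (median slope 0.14). Of all genes that passed, 25.7% rose and 26.8% fell. Some targets, Krt18 among them, lay under the filter's value of 8.40 on day 0 and passed it through later levels, so this count is a description only. Without the filter 8 of 19 rose and 0 fell, against 25.9% and 22.1% of all genes. The simple-epithelial keratins Krt18 (slope 1.24, from 6.07 to 11.92 on day 5) and Krt8 (slope 0.98, from 8.56 to 12.64) had the largest slopes, and both keratins are also expressed by extraembryonic endoderm. On day 1, 4 of the 19 lay above day 0 by 2-fold or more and 6 below it, against 9.15% and 4.02% of all genes. On day 5 these counts were 9 and 4, against 25.9% and 15.6%. Of 11 stress response genes, 8 passed the filter, with 3 rising and 3 falling, against the same 25.7% and 26.8%. Without the filter 4 of the 11 rose and 4 fell, against 25.9% and 22.1% of all genes. Of those that passed, Ddit4 (slope 0.45) and Sesn2 (0.22) rose, and Asns (-0.44) and Hsp90aa1 (-0.43) fell. Ddit4 lay under the filter's value on day 0 (7.87) and passed it through later levels. Over days 0 to 6 the counts were 1 rising and 0 falling of the target genes and 1 and 2 of the stress genes. The shares of all genes that passed were 1.6% and 3.78%.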

How the data were processed

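RNA of 7 libraries, 1 per day, was measured by sequencing. Reads were aligned with BWA 0.7.3 to mm9, per the submitters' processing notes, and the deposited log2 values per RefSeq transcript were made by the authors. Not given in the sources used here were the counter, its use of strand and the scaling, so reads of overlapping antisense transcripts cannot be told apart. Taken off the log scale, values were whole multiples of 1 step per library (tolerance 0.05 steps, checked up to 1000 steps), and the step was taken as 1 read. A whole number added before scaling cannot be told apart.

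The members, gene lists and tests were chosen with earlier results of these data known. For each symbol the transcript with the highest mean was used. The expression filter kept means above the 40th percentile (8.40), 7242 of 12071. Lines, and day with day squared, were fitted in R 4.3.3 by limma 3.58.1 with moderated variances and a mean trend; p-values were adjusted by Benjamini-Hochberg over the whole set fitted and called under 0.05. Members below the filter take their values from the fit without it. The fits were tested on simulated data. Of each list, the 2 largest called slopes in each direction were named; Srf, Fosb, Maf, Nanog, Sox1, Thy1, Pax6 and genes named only in captions were added after their values were seen. One gene of the leucine zipper list is not reported here and was left out of that list's counts. For likeness the 3 highest correlations were named. Pairs were tested with scipy 1.17.1. Libraries of 1 a day have no replicates, so a trend test measures departures from a line. Alternatives were median-centring, quantile normalization, a length correction, no filter, the longest transcript and each library left out.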

Additional observations from a re-analysis of the deposited data

How the results depend on the processing

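Leaving out 1 library at a time, limma called 1 to 2 of the 3 members past the filter rising over days 0 to 5 (1 without day 0, when Jun was lost) and 0 to 2 over days 0 to 6 (2 without day 6); 0 fell in any of these fits, and the F-test called 2 in each. Without the filter the F-test called 4 of 7, and counts at least 2-fold from day 0 were 2 lower on day 1, 5 higher on day 5 and 1 lower on day 5, since 7 genes entered in place of 3. With quantile normalization over the genes past the filter, 1 gene in place of 2 stood at least 2-fold higher on day 1: Jun was lost, at 0.73 in place of 2.35 (1.90 over all genes), and the cause was not tested. The day 1 difference of Fosl2 from day 0 was -0.35 with quantile normalization and -0.0007 with the length correction, within its counting interval. The Jun to Junb correlation with day was 0.64 over all 7 libraries and 0.81 to 0.89 with 1 library left out, and was lost without day 0, 3 or 4 (adjusted p 0.05, 0.117 and 0.138, exact permutation); Fos to Fosl2 was -0.52 over 7 libraries and -0.95 to -0.79 with 1 left out, lost without the same days at the same adjusted p. With 5 libraries there are fewer orders of days. Fos to Egr1 passed over 7 libraries (0.89, adjusted p 0.0405), with the length correction (0.89, adjusted p 0.0389) and without day 5, and ranged from 0.78 to 0.97 with 1 left out. The other pairs ranged from 0.73 to 0.92 (Jun to Jund), -0.83 to 0.41 (Junb to Jund) and -0.34 to 0.70 (Jun to Fos). The planned edgeR fit on the recovered reads was not run, because count models were kept to tables deposited as counts. No paired analysis was possible because each day had 1 library. Depth limits Fos, Fosl2 and Atf3 most, with 24, 17 and 12 reads on day 0.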
